A study of Caenorhabditis elegans with 14 samples.

Results

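Small RNAs of 4 tofu-6 mutant strains of Caenorhabditis elegans were set against those of a prg-1 mutant, a comparison of a piRNA maturation mutant with a Piwi mutant. The libraries were chosen by their labels alone and make up 5 of the 14 libraries of the series. The tofu-6 libraries came from the alleles it20, ust94, ust95 and yt2, with 1 library an allele, and the prg-1 library from the allele n4503. TDP2 libraries of the control strain, labelled n2, and of the mutants pics-1(tm2417) and erh-2(ust101) were also in the statistical fit. They counted towards the read minimum and the scaling of libraries, but no difference was tested against them. Control values are given beside those of the mutants. Whole worms were collected as late young adults from synchronised cultures kept at 20 °C with OP50 bacteria as food. RNA of 17 to 30 nucleotides was cloned after dephosphorylation and then Tobacco Decapping plus 2 (TDP2), which takes off the 5′ cap so that capped RNA can be ligated. How the mutant strains were maintained, and what each allele changes in the gene, is not given in the sources used here. The 4 tofu-6 libraries served as replicates although they are different strains, and nothing says that they came from separate cultures, so the p-values measure only the spread between these libraries. The prg-1 library stands alone and was assumed to vary as the tofu-6 alleles do. The reads assigned to a transcript or piRNA numbered 8789847 in it20, 8303487 in ust94, 9185339 in ust95 and 8154524 in yt2, against 8671475 in prg-1 and 9310418 in control.

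piRNAs of C. elegans, also called 21U-RNAs, are transcribed from many small loci as short capped precursors. TOFU-6 is a subunit of the PICS complex, which acts on these precursors before the cap and the first bases are removed. The 3′ end is later trimmed by PARN-1 and methylated by HENN-1. The mature piRNA is bound by the Piwi protein PRG-1, without which it does not accumulate. PRG-1 and its piRNA scan germline transcripts, and RNA-dependent RNA polymerases then copy the target into antisense 22G-RNAs, which WAGO Argonautes carry. Another class of 22G-RNAs is carried by CSR-1 and lies antisense to most expressed germline genes.

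The reads of the 5 libraries differed in make-up. Reads outside structural RNA made up 31.5%, 29.5%, 38.3% and 50.2% of the assigned reads in it20, ust94, ust95 and yt2, against 17.7% in prg-1 and 40.9% in control. Shares also differed with the treatment. In control, reads antisense to genes of the protein-coding class made up 15.3% of assigned reads with TDP2 and 0.336% untreated, and mature piRNAs 0.171% and 0.403%. Whether the treatment worked alike in each library was not tested. Over the 22549 features tested (a gene, transcript class or piRNA on one strand), the median log2 difference of tofu-6 over prg-1 was 0.52, so the changes below are read against that shift. With a false discovery rate of 0.05 in edgeR's quasi-likelihood test, 1450 features (6.43% of those tested) were higher in tofu-6 and 174 (0.772%) were lower. Higher features thus made up 89.3% of the calls; the share was 71.8% (1156 higher and 454 lower) when libraries were scaled to reads outside structural RNA, and 73.0% (1199 and 443) without yt2. With size factors by DESeq2's method but computed and tested in edgeR (DESeq2 size factors below), the counts were 637 and 80. DESeq2's own Wald test gave 1214 and 136. Without it20 the counts were 890 and 76. With libraries scaled to all assigned reads there were 0 of each, against 3398 features at an unadjusted p under 0.05. All 4 alleles lay above prg-1 at 34.2% of the features and below it at 19%. The mutated genes gave no check of the labels. Sense reads of tofu-6 numbered 156, 15, 73 and 130 in it20, ust94, ust95 and yt2, against 53 in prg-1 and 118 in control (adjusted p = 0.912 by edgeR), and sense reads of prg-1 numbered 242, 213, 142 and 312 in the tofu-6 alleles, against 103 in prg-1 and 201 in control (adjusted p = 0.785 by edgeR). Neither the tofu-6 gene in its mutants nor prg-1 in its mutant was at 0, and the part of each gene that is mutated is not given.

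At the loci with the most mature piRNA reads in the control strain, each tofu-6 allele held many times the reads of prg-1, while the total share of mature piRNAs differed less. Mature piRNA reads made up 0.0572%, 0.0427%, 0.0946% and 0.0503% of assigned reads in it20, ust94, ust95 and yt2, against 0.0259% in prg-1 (95% exact Clopper-Pearson interval 0.0249 to 0.0270, counting error only, as for all intervals here) and 0.171% in control. Every allele lay above prg-1 and below control. The tofu-6 mean was 0.0612% ± 0.0230 (SD, n = 4), 2.36 times the prg-1 share. The exact two-sided permutation p was 0.400, and 4 libraries against 1 cannot go below 0.200. The order of the libraries rested on the scale. Per 1000 reads outside structural RNA, mature piRNA reads numbered 1.82, 1.45, 2.47 and 1.00 in the alleles, against 1.46 in prg-1 and 4.18 in control, so that ust94 and yt2 no longer exceeded prg-1.

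**Figure D1:**
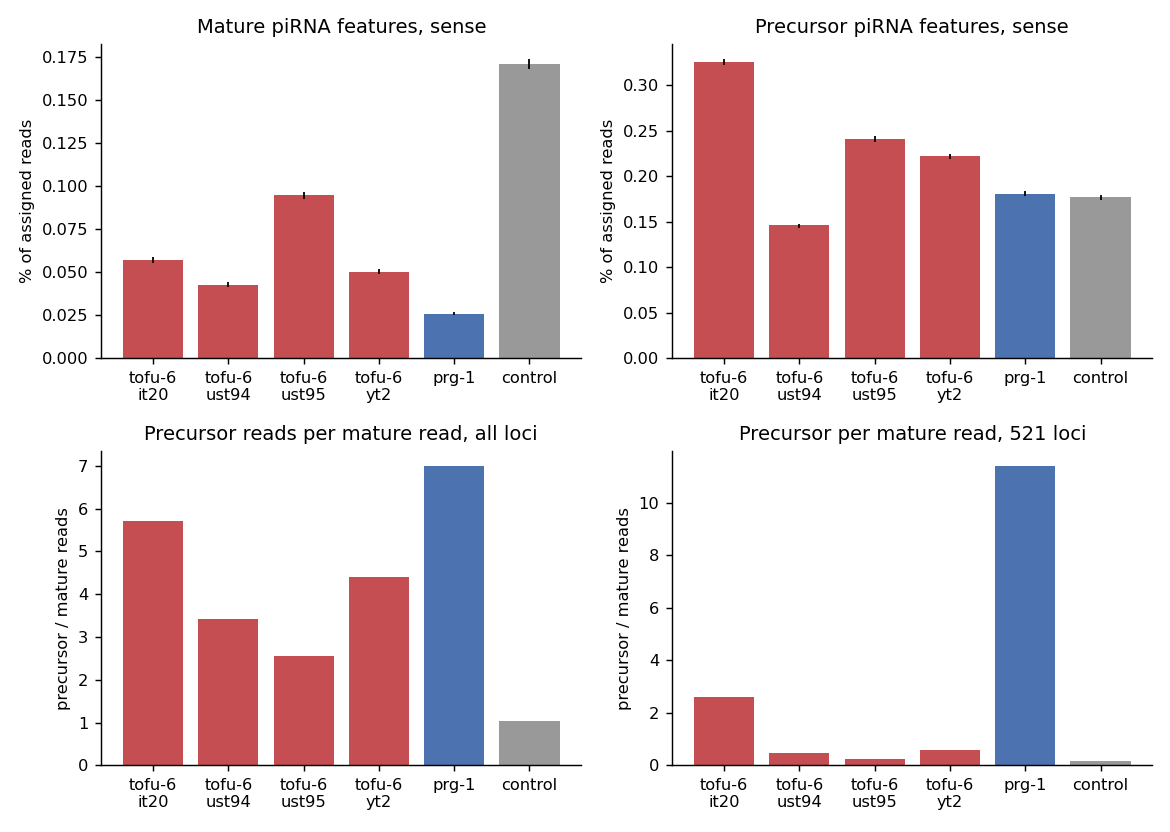
Mature and precursor piRNA reads in each TDP2 library, with the 4 tofu-6 alleles left of prg-1 and control: share of assigned reads in percent with 95% Clopper-Pearson intervals for both kinds, and precursor reads per mature read at all loci and at the 521 loci with 10 or more mature reads in the untreated control library. At the 521 loci prg-1 stands at 11.4 precursor reads per mature read, above the 4 alleles at 0.234 to 2.62.

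The untreated control library, which is in none of these tests, had 10 or more mature reads at 521 loci. In the TDP2 libraries these loci held 1402, 1287, 4256 and 1807 mature reads in it20, ust94, ust95 and yt2, against 141 in prg-1 and 8541 in control. That was 27.9%, 36.3%, 49.0% and 44.1% of all mature reads in the alleles, against 6.27% in prg-1 (5.30 to 7.35) and 53.7% in control. The groups did not overlap on this measure, nor when the reads were set against microRNAs: 9.76, 7.52, 11.3 and 7.33 reads per 1000 microRNA reads in the alleles, against 1.07 in prg-1 and 11 in control. Per 1000 reads outside structural RNA the loci held 0.507, 0.526, 1.21 and 0.441 reads in the alleles, against 0.0917 in prg-1 and 2.25 in control. Of the 521 mature features, 144 had enough reads to be tested and 115 of these had no read in prg-1, so that most passed the read minimum only through other libraries. The test called 12 of them higher in tofu-6, a share near the 6.43% over all features, and 0 lower, which so many features at 0 in prg-1 leaves little room for. In untreated libraries, which exist for ust94 alone among the alleles, mature piRNAs came to 2806 reads per 1000000 assigned in tofu-6, against 23.7 in prg-1 and 4033 in control, a comparison of single libraries with no test.

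What remained in prg-1 was spread differently. Mature features with at least 1 read numbered 1197, 957, 1726 and 1146 in the alleles, against 495 in prg-1 and 2466 in control. A single feature, piR-cel-15879, held 28.8% of the mature reads of prg-1, and the 10 most read features held 46.6%. This feature had 156, 37, 93 and 173 reads in it20, ust94, ust95 and yt2, against 648 in prg-1 and 289 in control, and was lower in tofu-6 by a log2 difference of -3.01 ± 0.80 (SE; adjusted p = 0.00449 by edgeR). The call ended without it20 (adjusted p = 0.0571 by edgeR) and without ust95 (0.0536 by edgeR). The other features most read in prg-1 did not pass: piR-cel-8412 had 500, 61, 89 and 28 reads in the alleles, against 135 in prg-1, with it20 far above the rest, and piR-cel-25155 had 141, 52, 98 and 27, against 74 in prg-1. piR-cel-15748 and piR-cel-15877 had 35 reads each in prg-1, against 9 to 33 and 6 to 21 in the alleles.

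As a class, mature piRNA features were called about as often as all features: of the 264 tested, 18 (6.82%, beside 6.43% over all features) were higher in tofu-6 and 2 (0.758%, beside 0.772%) lower. The higher count was 6 without it20 or without ust95, and 1 with DESeq2 size factors. A total of 171 of the 264 had no read in prg-1, and with such features set to their lower bound (3 reads as the floor of a library) the median log2 difference was 0.73. piR-cel-3975 had 110, 6, 62 and 206 reads in it20, ust94, ust95 and yt2, against 0 in prg-1 and 445 in control, at least 21.5-fold higher in tofu-6 (adjusted p = 0.000940 by edgeR). piR-cel-5504 had 19, 35, 103 and 61 reads in the alleles, against 0 in prg-1 and 294 in control, at least 12.5-fold higher (adjusted p = 0.00330 by edgeR). Both features were read in each allele at counts below those of the control library. piR-cel-1793 had 4, 74, 94 and 34 reads, against 0 in prg-1 and 87 in control, and it20 was the lowest allele (at least 12.8-fold, adjusted p = 0.00317 by edgeR). piR-cel-2290 had 45, 37, 289 and 65 reads, against 1 in prg-1 and 374 in control, a ratio of 72.7 (95% counting interval 14 to 3113; adjusted p = 0.00413 by edgeR, 0.0726 without ust95, the allele with the most reads). The most read of all in control, piR-cel-4817, had 499 reads there, 41, 0, 5 and 54 in the alleles and 0 in prg-1. Its call (at least 5.71-fold, adjusted p = 0.0205 by edgeR) ended without it20 or yt2, the alleles that held nearly all its reads. piR-cel-4319 had 20, 6, 46 and 24 reads, against 1 in prg-1 and 225 in control, and did not pass (adjusted p = 0.117 by edgeR).

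Precursor piRNAs, the capped forms that TDP2 makes clonable, took shares that overlapped between the mutants. They made up 0.326%, 0.146%, 0.241% and 0.222% of assigned reads in it20, ust94, ust95 and yt2, against 0.181% in prg-1 (0.178 to 0.184) and 0.177% in control. ust94 lay below prg-1 and the other alleles above it, so the groups overlapped. The tofu-6 mean of 0.234% ± 0.0739 (SD, n = 4) was 1.29 times the prg-1 share (exact permutation p = 0.600, two-sided). The ratio was 0.839 per microRNA read and 0.636 per read outside structural RNA, so its direction hung on the scale.

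Precursor reads per mature read, a ratio taken within a library, were higher over all loci in prg-1 than in the 4 alleles or control. They came to 5.70, 3.41, 2.55 and 4.41 in it20, ust94, ust95 and yt2, against 6.99 in prg-1 and 1.03 in control. All 4 alleles lay between control and prg-1, with a tofu-6 mean of 4.02 ± 1.35 (SD, n = 4). Among all TDP2 libraries prg-1 was not the highest, with 10.9 in pics-1 and 5.72 in erh-2. In untreated control the ratio was 0.0287, so it moved with the treatment. Whether the treatment worked alike in each library was not tested. At the 521 loci the ratio was 2.62, 0.486, 0.234 and 0.599 in the alleles, against 11.4 in prg-1 and 0.149 in control. Among the alleles it20 stood above the others. The ratio there was 4.48 in pics-1 and 4.07 in erh-2. Where both features of a locus had reads (1303 loci), it was 7.87, 4.42, 3.87 and 5.78 in the alleles, against 7.80 in prg-1, and it20 was then level with prg-1. Without piR-cel-15879 the values were 5.88, 3.45, 2.58 and 4.61, against 9.81 in prg-1. The precursors at the 521 loci themselves gave 0 higher and 0 lower of the 119 tested (of 269), with a median log2 difference of -0.09.

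Of 507 precursor features tested on the sense strand, 24 (4.73%, beside 6.43% over all features) were higher in tofu-6 and 10 (1.97%, beside 0.772%) lower. The features named next were singled out for their folds and do not stand for the class. piR-cel-18932 had 1002, 238, 1136 and 1919 precursor reads in it20, ust94, ust95 and yt2, against 1 in prg-1 and 1022 in control (ratio 727, counting interval 139 to 30604; adjusted p = 6.1e-05 by edgeR). piR-cel-19509 had 528, 114, 269 and 9 reads, against 0 in prg-1 and 412 in control, at least 57.4-fold higher (adjusted p = 0.000154 by edgeR). piR-cel-22449 had 184, 203, 396 and 2910 reads, against 2 in prg-1 and 386 in control, with yt2 far above the other alleles (ratio 301, 92.1 to 2751; adjusted p = 0.000145 by edgeR). Each allele and control held reads of these 3 precursors, and prg-1 held 2 at most. Other precursors much read in control did not pass: piR-cel-1430 had 488, 153, 1463 and 375 reads in the alleles, against 352 in prg-1, and piR-cel-18434 had 1256, 397, 311 and 368, against 568 in prg-1. In the other direction, the precursor of piR-cel-15748 had 191, 54, 69 and 73 reads, against 963 in prg-1 and 146 in control (log2 difference -3.74 ± 0.80 SE; adjusted p = 0.000181 by edgeR). That of piR-cel-15724 had 2, 0, 1 and 1 reads, against 43 in prg-1 and 3 in control.

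Precursor features can hold reads of another gene on the same stretch, and some were all or none. Of 57 sense precursor features with 100 or more reads in a TDP2 library, 8 had no read in another, and of 22 antisense ones, 15 had none. The antisense feature of piR-cel-16614 had 0, 0, 3074 and 0 reads in it20, ust94, ust95 and yt2, against 3855 in prg-1 and 0 in control, and that of piR-cel-20348 had 0 in each allele and in control, against 95 in prg-1. Neither was particular to prg-1: the first had 3694 reads in erh-2 and 0 in pics-1, the second 180 in pics-1 and 0 in erh-2. Opposite piR-cel-15840 there were 937, 389, 1041 and 1299 reads in the alleles, against 0 in prg-1 and 479 in control (at least 213-fold; adjusted p = 3.4e-05 by edgeR). Antisense to precursors as a class, 15 of 78 features (19.2%, beside 6.43% over all features) were higher and 5 (6.41%, beside 0.772%) lower. Values of such single loci are uncertain.

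Reads antisense to genes of the protein-coding class, where 22G-RNAs fall, gave 1238 of the 1450 features called higher in tofu-6. Of 8653 genes tested on the antisense strand, 1238 (14.3%) were higher in tofu-6 and 28 (0.324%) were lower, beside 6.43% and 0.772% over all features. The higher count was 792 without it20, 573 with DESeq2 size factors and 0 with libraries scaled to assigned reads; the lower count was 10 without it20 and 173 without yt2. The median log2 difference of the class was 0.15, and it was negative with 6 of the other scalings, filters and fits and without yt2, where it was -0.54. The log2 difference was -1.27 at the 10th percentile of the genes, 3.41 at the 75th and 7.04 at the 90th. The share of antisense reads among all assigned reads overlapped between the groups, with 10.7%, 4.93%, 15.5% and 27.1% in it20, ust94, ust95 and yt2, against 5.46% in prg-1 and 15.3% in control.

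**Figure D2:**
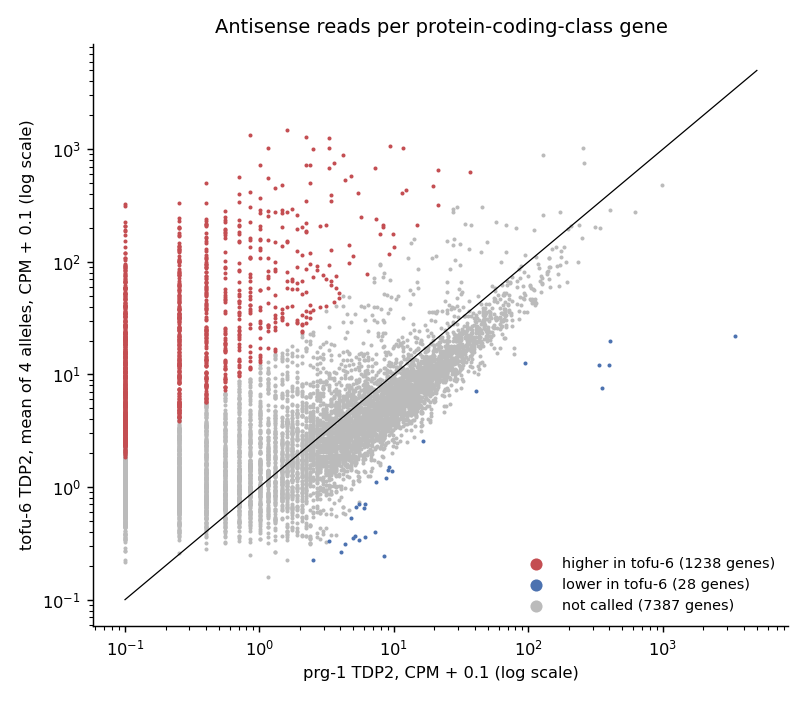
Mean antisense level in the 4 tofu-6 alleles against the level in prg-1 for the 8653 genes tested, as reads per 1000000 of adjusted library size (CPM) plus 0.1 on log axes, with the line of equality. The 1238 genes called higher in tofu-6 form a band at low prg-1 values apart from the 7387 genes not called, and the 28 lower genes lie on the other side of the line.

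The 1238 genes were nearly empty of antisense reads in prg-1. They held 54.2%, 54.9%, 55.3% and 60.6% of the antisense reads of this class in it20, ust94, ust95 and yt2, against 0.932% in prg-1 (0.905 to 0.960) and 42.8% in control. The genes were chosen by this same difference, so the shares are a description, and 578 of them had no antisense read in prg-1. The untreated libraries were not in the fit and gave the same genes 37.4% of antisense reads in tofu-6(ust94) (37.1 to 37.7), against 2.94% in prg-1 (2.78 to 3.1) and 18.2% in control (17.7 to 18.7). Of the 541 genes with 10 or more reads in the untreated pair, 534 (98.7%) were above prg-1 in ust94, with a median log2 difference of 4.03 after adding 0.1 reads per 1000000. Over all 2602 antisense genes with that many reads, 1787 (68.7%) were above prg-1, with a median of 0.60. These are 1 library against 1, and the strain ust94 is in both comparisons. The 1238 genes held 33108 antisense reads in untreated ust94 and 1288 in untreated prg-1, where 841 genes had none. The minimum of 10 reads, summed over the pair, was thus met mainly through ust94, which partly sets the 98.7%. The antisense reads of the remaining genes made up 4.92%, 2.22%, 6.94% and 10.7% of assigned reads in it20, ust94, ust95 and yt2, against 5.41% in prg-1.

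**Figure D3:**
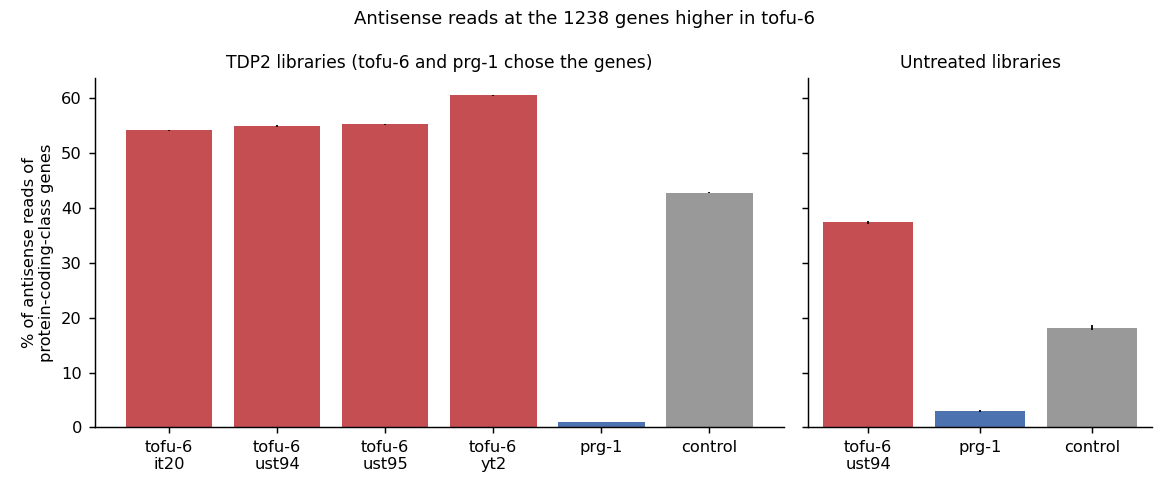
Share of the antisense reads of protein-coding-class genes that fell on the 1238 genes called higher in tofu-6, in percent for each library with 95% Clopper-Pearson intervals, TDP2 libraries left and untreated libraries right. In both kinds prg-1 is the lowest library shown, at 0.932% and 2.94%.

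The genes were not spread evenly. On chromosome X, 196 of 738 genes tested (26.6%) were higher in tofu-6 and the median log2 difference was 2.98, while on the autosomes 11.5% (IV) to 14.9% (V) were higher, with medians of -0.20 to 0.50. Pseudogenes were higher at 56 of 173 (32.4%), against 1154 of 8357 (13.8%) of the genes annotated as protein-coding. Among the 100 genes with the most antisense reads in the untreated control library, 33 were higher in tofu-6, and among the next 900 it was 176 (19.6%). No test of these shares was made. At the transcripts of the same 1238 genes, sense reads were tested for 718 genes, with 18 higher and 14 lower and a median log2 difference of 0.54, near the 0.68 of all 10757 genes tested for sense reads.

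Genes with many antisense reads in every tofu-6 allele and none in prg-1 led the list. Y38H6C.10, a pseudogene on chromosome V (20516298 to 20518036, WBcel235), had 2107, 1499, 4413 and 4567 antisense reads in it20, ust94, ust95 and yt2, against 0 in prg-1 and 1617 in control, at least 722-fold higher (adjusted p = 9.7e-06 by edgeR). unc-49, which encodes the GABA receptor of body muscle (III, 10520762 to 10532705), had 1469, 572, 2310 and 8233 reads, against 0 in prg-1 and 1552 in control, at least 690-fold higher (adjusted p = 9.7e-06 by edgeR). Among the alleles ust94 was the lowest and yt2 the highest at both genes. pxd-1 (III, 4006142 to 4009960) had 1192, 678, 2244 and 4038 reads, against 0 in prg-1, at least 458-fold higher. F22H10.4 had 1422, 762, 1971 and 4735 reads, against 0 in prg-1, and F46F2.4, a pseudogene on X (15257597 to 15259013), had 1435, 602, 1884 and 4170, against 0 in prg-1, at least 502-fold and 456-fold higher.

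Known targets of the piRNA pathway were among the higher genes. bath-45, a known target of piRNA-dependent 22G-RNAs (II, 13123020 to 13125189), had 6524, 4202, 15949 and 23067 antisense reads in it20, ust94, ust95 and yt2, against 21 in prg-1 and 11628 in control, a log2 difference of 8.63 ± 1.72 (SE; adjusted p = 7.2e-05 by edgeR). xol-1, the master switch of sex determination on X (8041313 to 8044409), which a single piRNA is known to silence, had 424, 123, 673 and 384 reads, against 2 in prg-1 and 696 in control (log2 difference 7.05 ± 1.59 SE; adjusted p = 0.000468 by edgeR). For both genes every allele stood far above prg-1. These were 2 of the 3 genes of the WAGO list, beside 14.3% of all antisense genes. The 3 genes were chosen with earlier results of these data known, and do not stand for such targets as a class. Sense reads gave 0 of 2, beside 0.669% higher and 0.799% lower of all genes tested for sense reads. Targets of ERGO-1, an Argonaute whose 26G-RNAs lead to secondary 22G-RNAs without PRG-1, were also higher at 6 of 16 genes and lower at 0. That was 37.5% higher, beside 14.3% of all antisense genes. The median log2 difference was 3.28, and all 4 alleles lay above prg-1 at 13 of the 16 (34.2% over all features). The called number was 3 without it20 or without ust95, and 1 with DESeq2 size factors. The reads of the list summed to 1402, 1238, 3617 and 2865 CPM in the alleles, against 215 in prg-1 and 3076 in control. E01G4.5 had 1707, 1021, 9400 and 4253 reads, against 75 in prg-1 and 9091 in control (adjusted p = 0.00628 by edgeR). Y17D7B.4 (1406, 1278, 4321 and 2505 reads, against 37 in prg-1) and W04B5.2 (1727, 1009, 4207 and 2236, against 48) moved likewise, with adjusted p = 0.00366 and 0.00708 by edgeR.

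Collagen genes, whose products build the cuticle, were higher on the antisense strand in tofu-6 at 13 of 30 tested and lower at 0. That was 43.3% higher, beside 14.3% of all antisense genes. Of the 30, 22 had all 4 alleles above prg-1 (34.2% over all features), and 13 had no read in prg-1; the median log2 difference was 2.27 with those at their lower bound. The called number was 8 without it20 or without yt2. col-71 had 2213, 919, 2630 and 5126 antisense reads in it20, ust94, ust95 and yt2, against 3 in prg-1 and 2041 in control (ratio 619, counting interval 224 to 3175; adjusted p = 5.5e-05 by edgeR). col-45 had 397, 462, 1398 and 1122, against 2 in prg-1 and 566 in control (ratio 290, 84.3 to 2517), and col-60 had 194, 44, 323 and 1005, against 0 in prg-1 and 162 in control (at least 85.2-fold). The alleles were all far above prg-1 for these 3 genes, with ust94 the lowest for col-71 and col-60. On the sense strand 5 collagen genes (4.31% of those tested, beside 0.772% over all features) were lower and 0 higher. The lower number was 0 without it20, 1 without ust94 and 25 without ust95. col-154, for example, had 10, 13, 61 and 6 sense reads in the alleles, against 111 in prg-1 (adjusted p = 0.0136 by edgeR, 0.219 without it20).

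Histone genes that passed the test were higher in tofu-6 on the antisense strand and lower on the sense strand, and most histone genes passed on neither. On the antisense strand 14 of 70 (20%, beside 14.3% of all antisense genes) were higher and 0 lower, with a median log2 difference of 1.93, and the list summed to 941, 324, 630 and 1998 CPM in it20, ust94, ust95 and yt2, against 125 in prg-1 and 404 in control. The called number was 6 without it20, 25 without ust94, 4 without yt2 and 2 with DESeq2 size factors. his-35, an H2A gene, had 159, 27, 138 and 626 reads, against 0 in prg-1 (at least 52.2-fold; adjusted p = 0.000136 by edgeR). his-61 had 675, 2, 198 and 1051, against 5 in prg-1, so that ust94 did not share the rise, and a gene listed as his-47 (IV, 11324056 to 11324439) had 148, 8, 60 and 3268, against 7 in prg-1, a call that ended without yt2 (adjusted p = 0.164 by edgeR). On the sense strand 16 of 71 (22.5%, beside 0.772% over all features) were lower and 0 higher, with a median log2 difference of -1.91, and all 4 alleles lay below prg-1 at 67 of the 71 (19% over all features). The sense reads summed to 813, 405, 666 and 829 CPM in the alleles, against 2650 in prg-1 and 3901 in control, so the groups did not overlap and prg-1 lay nearer to control. In the untreated libraries the sum was 191 reads per 1000000 assigned in tofu-6(ust94), against 943 in prg-1 and 1382 in control. The called number was 0 without it20, 3 without ust95, 33 without yt2 and 33 with libraries scaled to reads outside structural RNA. his-67 had 504, 100, 276 and 516 sense reads, against 1859 in prg-1 and 1682 in control, and his-2 had 20, 8, 44 and 76, against 202 in prg-1 and 268 in control; both calls ended without it20. Histone genes are near-identical copies, so single members are uncertain.

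**Figure D4:**
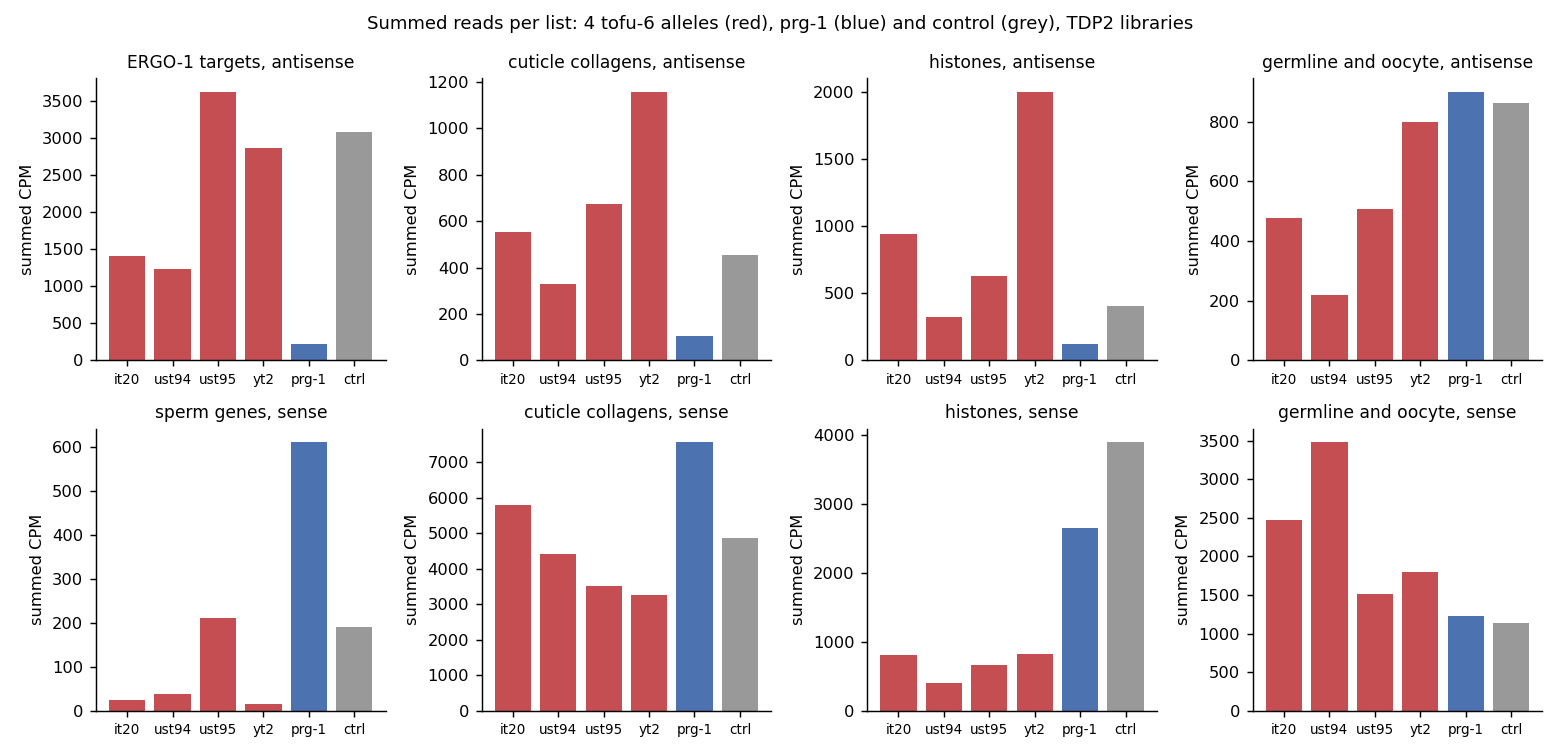
Summed CPM of gene lists in each TDP2 library, tofu-6 alleles left of prg-1 and control: antisense reads of ERGO-1 targets, collagen, histone and germline genes, and sense reads of sperm, collagen, histone and germline genes. Antisense sums of the ERGO-1, collagen and histone lists are lowest in prg-1, at 215, 107 and 125 CPM, while its sperm sense sum is the highest, at 610 CPM.

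Antisense reads of smaller lists moved at single genes. Higher in tofu-6 were 30.0% of the heat shock genes tested, 18.2% of muscle and 2.67% of ribosomal protein genes, beside 14.3% of all antisense genes. Of 10 heat shock genes 3 were higher, 0 without it20 and 0 without yt2: hsp-16.48, a small heat shock protein with 2 annotated copies, had 14, 8, 30 and 91 reads at one copy in it20, ust94, ust95 and yt2, against 0 in prg-1 and 39 in control (at least 7.84-fold). Of 11 muscle genes 2 were higher. lev-11, which encodes tropomyosin, had 88, 17, 188 and 132 reads, against 1 in prg-1 (ratio 70.9, counting interval 13.7 to 3035; adjusted p = 0.00431 by edgeR, 0.0520 without it20). unc-87, a calponin-related muscle protein, had 8, 5, 8 and 3311, against 0 in prg-1, and its call rested on yt2 (adjusted p = 0.253 by edgeR without it). Of 75 ribosomal protein genes 2 were higher, and 1 allele held most of the reads of each: rpl-25.1 had 21, 1, 7 and 579 reads, against 0 in prg-1 (adjusted p = 0.202 by edgeR without yt2), and rpl-11.2 had 249, 14, 111 and 41, against 5 (0.504 without it20 and 0.126 without ust95).

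Genes of the small RNA pathways themselves did not pass on either strand. Antisense reads gave 0 higher and 0 lower of 21 piRNA pathway genes, 19 genes of 22G synthesis, 17 other Argonautes, 8 nuclear RNAi genes and 14 P and Z granule genes, with median log2 differences of -0.59, -0.36, -0.32, -0.54 and -0.44, below the 0.15 of all antisense genes. Of all antisense genes 14.3% were higher and 0.324% lower. With libraries scaled to assigned reads the medians of the last 4 lists were 0.21, 0.29, 0.03 and 0.14. The closest was parn-1, the trimming enzyme of piRNAs, with 1407, 709, 1615 and 1768 antisense reads in it20, ust94, ust95 and yt2, against 88 in prg-1 and 1123 in control (log2 difference 3.46 ± 1.25 SE; adjusted p = 0.0703 by edgeR, 0.0270 without ust94). rde-11, of the RDE-10 and RDE-11 complex, had 634, 211, 618 and 1337, against 46 in prg-1 (adjusted p = 0.0731 by edgeR, 0.0205 without ust94), and meg-4, a germ granule protein, had 157, 58, 129 and 155, against 10 in prg-1 (0.107, and 0.0143 without ust94). The groups did not overlap at these 3 genes, which do not stand for their lists. All 4 alleles lay above prg-1 at 2 genes of the piRNA pathway list, 3 of 22G synthesis and 1 of the granule list. They lay below it at 10, 5 and 5 genes of these lists. Over all 8653 antisense genes the numbers were 2863 above and 2334 below. alg-1 and hrde-2 had log2 differences of 2.75 (adjusted p = 0.294 by edgeR) and -1.02 (0.667). Antisense reads of the genes prg-1 and tofu-6 numbered 841, 370, 1005 and 1619 against 411 in prg-1, and 104, 12, 24 and 399 against 55 in prg-1, and neither passed. On the sense strand the same lists also gave 0 higher and 0 lower, with medians of 0.59 to 1.04 beside 0.68 for all genes. Only 0.669% of all genes tested for sense reads were higher and 0.799% lower, so lists this short had little room for a call. The PICS subunit gene erh-2 had the lowest p of the piRNA pathway list (log2 difference 1.93, adjusted p = 0.412 by edgeR) and mip-2 that of the granule list (2.61, 0.206).

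Antisense reads of genes expressed in the germline, which CSR-1 carries in wild type, were not called in either direction. They gave 0 of 36 germline and oocyte genes and 0 of 30 chromosome segregation genes, with medians of -0.80 and -0.81, and all 4 alleles lay below prg-1 at 23 and 22 of them (19% over all features, and 2334 of all 8653 antisense genes). Of all antisense genes 14.3% were called higher and 0.324% lower. cpg-2, an eggshell protein gene, had 51, 13, 32 and 42 antisense reads in it20, ust94, ust95 and yt2, against 122 in prg-1 (adjusted p = 0.0732 by edgeR; 0.0362 without ust94 and 0.0192 without yt2), and spd-1 had a log2 difference of -1.46 (adjusted p = 0.453 by edgeR). Antisense reads of the vitellogenin genes, which encode intestinal yolk proteins, gave 0 of 6 (vit-2 log2 difference 2.94, adjusted p = 0.279 by edgeR).

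The 28 genes with fewer antisense reads in tofu-6 held 34519 such reads in prg-1, against 942, 435, 1417 and 1264 in the alleles and 1486 in control. The genes were chosen by this same difference between tofu-6 and prg-1, so the shares are a description. They took 0.0997%, 0.106%, 0.0995% and 0.0572% of antisense reads in it20, ust94, ust95 and yt2, against 7.29% in prg-1 (7.22 to 7.37) and 0.104% in control. Most of the prg-1 reads came from Y38C9A.1. It had 234, 59, 243 and 311 reads in the alleles, against 22831 in prg-1 and 246 in control (log2 difference -7.29 ± 0.90 SE, adjusted p = 7.7e-12 by edgeR). C27C7.1 (I, 11439289 to 11440709) had 53 to 148 in the alleles, against 2644 in prg-1 and 167 in control, T16G12.3 (III, 10050621 to 10054369) had 73, 29, 112 and 72, against 2319 and 97, and H11L12.1 (X, 17710285 to 17711698) had 103, 85, 148 and 102, against 2228 and 173. The alleles and control were all far below prg-1 at these 4 genes. ins-30, an insulin-like peptide gene, had 0, 2, 2 and 1 reads, against 55 in prg-1 and 0 in control. Of the 13 with 10 or more reads summed over the untreated pair, 12 were below prg-1 in ust94. The 28 genes held 155 antisense reads in untreated ust94 and 580 in untreated prg-1. The minimum was thus met largely through prg-1, which partly sets this count.

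Sense reads of protein-coding genes are fragments of mRNA or small RNAs of an overlapping gene, and changed at few genes. Of 10757 tested, 72 (0.669%, beside 6.43% over all features) were higher in tofu-6 and 86 (0.799%, beside 0.772%) lower. These counts were 27 and 21 without it20, and the lower count was 150 without ust95. The list with the most lower genes was that of sperm, with 24 of 42 lower (0.772% over all features) and 0 higher, a median log2 difference of -3.09, and all 4 alleles below prg-1 at 39 (19% over all features). The list, made up mostly of genes for major sperm proteins, summed to 24.4, 38.1, 211 and 14.4 CPM in it20, ust94, ust95 and yt2, against 610 in prg-1 and 190 in control. ust95 thus stood near control, the other alleles well under it, and prg-1 above all. In untreated libraries the sums were 18.8 reads per 1000000 assigned in tofu-6(ust94), against 87.3 in prg-1 and 32 in control. The called number was 5 without it20, 14 without ust94, 35 without ust95 and 3 with DESeq2 size factors. smz-1, a sperm protein with a PDZ domain, had 24, 4, 94 and 15 sense reads, against 340 in prg-1 and 251 in control (log2 difference -3.89 ± 0.81 SE; adjusted p = 0.000130 by edgeR). msp-50 had 2, 1, 51 and 6, against 143 in prg-1 and 48 in control, and msp copies are near-identical. On the antisense strand, 1 of 24 sperm genes was lower, msp-77 with 1, 0, 4 and 0 reads against 16 in prg-1, a call that ended without it20 or ust94. In whole-worm RNA fewer sperm and less RNA per sperm cannot be told apart, and the part of sperm content in the other differences was not tested.

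Markers of other tissues did not pass on the sense strand. Over all 10757 genes tested for sense reads only 0.669% were higher and 0.799% lower, so lists this short had little room for a call. Germline and oocyte genes gave 0 of 36 with all 4 alleles above prg-1 at 27 (34.2% over all features, and 4238 of 10757 protein-coding genes on the sense strand), and summed to 2475, 3479, 1517 and 1799 CPM in it20, ust94, ust95 and yt2, against 1230 in prg-1 and 1137 in control; puf-8 had the lowest p (log2 difference 2.01, adjusted p = 0.371 by edgeR). Chromosome segregation genes gave 0 of 30, vitellogenins 0 of 6, muscle genes 0 of 28, ribosomal protein genes 0 of 77, ERGO-1 targets 0 of 14 and intestine markers 0 of 4. The medians were 0.78 for chromosome segregation, 0.46 for vitellogenins, -0.28 for muscle and -0.40 for intestine, beside 0.68 for all genes. Heat shock genes were higher at 2 of 17 (11.8%, beside 6.43% over all features). hsp-16.2 had 8, 63, 11 and 22 sense reads, against 0 in prg-1 and 1 in control (at least 7.27-fold, adjusted p = 0.0122 by edgeR). hsp-70 had 5, 65, 7 and 16, against 0 in prg-1 and 0 in control (at least 6.72-fold, adjusted p = 0.0149 by edgeR). ust94 was the highest allele at both. Both calls ended without it20 (adjusted p = 0.0586 and 0.0625 by edgeR), and that of hsp-70 also without ust94 (0.0903 by edgeR).

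The sense changes of largest fold were genes read in every allele and at 0 in prg-1. C36C9.4 (X, 1693883 to 1696979) had 876, 380, 1193 and 1306 sense reads in it20, ust94, ust95 and yt2, against 0 in prg-1 and 1257 in control, at least 217-fold higher (adjusted p = 3.4e-05 by edgeR). T25D1.1 had 272, 149, 345 and 299, against 0 in prg-1 and 199 in control, at least 62.9-fold higher. Y66D12A.3 and the pseudogene Y54G2A.42 were at least 29.9-fold and 25.7-fold higher. Control also had reads at these 4 genes. F07F6.7, whose annotated end meets that of tofu-6 on the other strand (II, 5422735 to 5423858, beside tofu-6 at 5421248 to 5422737), had 5, 3, 1 and 516 sense reads, against 0 in prg-1 and 8 in control. Nearly all came from yt2, and without it the gene fell under the read minimum and had no test. Among the lower genes, Y79H2A.4 had 7, 0, 2 and 2 reads, against 189 in prg-1 and 2 in control (log2 difference -6.51 ± 0.90 SE; adjusted p = 3.4e-09 by edgeR), and F16B4.6 had 5, 7, 4 and 4, against 189 in prg-1 and 9 in control. K12H6.4 had no read in any allele, against 41 in prg-1 and 2 in control, at least 18.4-fold lower. fipr-20, of the fungus-induced protein related family, differed in that control was also high, with 2, 0, 5 and 3 reads in the alleles, against 109 in prg-1 and 65 in control.

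Antisense reads of lincRNA genes, long intergenic transcripts, were higher in tofu-6 at 15 of 59 (25.4%, beside 6.43% over all features) and lower at 0. All 4 alleles lay above prg-1 at 46 of the genes (34.2% over all features). The antisense lincRNA reads took 0.198%, 0.154%, 0.482% and 0.514% of assigned reads in it20, ust94, ust95 and yt2, against 0.0254% in prg-1 (0.0244 to 0.0265) and 0.439% in control. The exact two-sided permutation p was 0.200, the smallest this design allows. linc-29 (IV, 6354024 to 6357243) had 5234, 3798, 8879 and 3786 reads, against 25 in prg-1 and 14438 in control (log2 difference 7.28 ± 1.61 SE; adjusted p = 0.000319 by edgeR). linc-63 had 1840, 1145, 2167 and 2925, against 9 in prg-1 and 1962 in control, and linc-6 had 633, 205, 731 and 5620, against 8 in prg-1 and 769 in control, with yt2 far above the other alleles. On the sense strand linc-30 was higher (123, 105, 262 and 202 reads, against 3 in prg-1), a call that ended without it20.

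Few microRNAs, a class made by Dicer without the piRNA pathway, passed the test. Of 129, 2 (1.55%, beside 6.43% over all features) were higher and 2 (1.55%, beside 0.772%) lower. The families let-7 (6 members), mir-35 (8), mir-51 (6) and mir-58 (3) gave 0 of each, with medians of 0.01, 0.17, 0.13 and 0.52. With DESeq2 size factors the first 3 medians were -0.19, -0.04 and -0.10. cel-mir-37 of the mir-35 family, microRNAs of oocytes and embryos, had 15466, 9410, 36603 and 23581 reads in it20, ust94, ust95 and yt2, against 7431 in prg-1 and 82091 in control (adjusted p = 0.737 by edgeR), and cel-mir-53 had 560, 416, 456 and 496, against 166 and 2175 (0.696). The higher pair were the 2 annotated copies of mir-258.2 on X, with 146, 66, 143 and 427 and with 141, 72, 137 and 384 reads, against 0 in prg-1 at both and 136 and 118 in control; the reads of such copies cannot be told apart. cel-mir-1829c, with 45, 10, 16 and 32 reads against 120 in prg-1 and 99 in control, was lower (adjusted p = 0.0209 by edgeR, 0.0808 without it20 and 0.164 without ust95), as was F39B1.3 with 51, 5, 7 and 21 reads against 95 in prg-1, a call that ended without ust94 or ust95.

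Structural and other RNAs made up most reads. Sense snRNA reads took 11.7%, 5.71%, 5.60% and 5.44% of assigned reads in it20, ust94, ust95 and yt2, against 21.8% in prg-1 and 5.65% in control (exact permutation p = 0.200, two-sided), and the snRNA gene T14B4.10 had 36646, 11465, 13284 and 15749 reads, against 89685 in prg-1 and 17533 in control (adjusted p = 0.0364 by edgeR, 0.184 without ust94 and 0.132 without ust95). Of 531 tRNA genes tested, 22 (4.14%, beside 0.772% over all features) were lower and 0 higher, with a median log2 difference of -1.06. F02D10.t3 had 14, 22, 22 and 27 reads, against 176 in prg-1 and 134 in control, where prg-1 resembled control (adjusted p = 0.000771 by edgeR, 0.0557 without it20). Antisense to ncRNA genes, 35 of 688 (5.09%, beside 6.43% over all features) were higher and 11 (1.60%, beside 0.772%) lower. Of the ncRNA genes with reads, 422 lie opposite a structural RNA gene, so that their antisense reads may be those of the structural RNA. srd-70, listed there, had 190, 32, 362 and 853 antisense reads, against 0 in prg-1 and 421 in control, at least 78.0-fold higher. On the sense strand 20 of 384 ncRNA genes (5.21%) were higher and 1 (0.260%) lower. T23G5.9, with 397, 99, 415 and 663 reads, against 0 in prg-1 and 262 in control, was the highest by fold (at least 89.5-fold). Antisense snoRNA reads gave 5 of 53 higher (9.43%, beside 6.43% over all features), among them T21F2.3 with 188, 112, 192 and 822 reads against 1 in prg-1. Sense snoRNA reads gave 4 of 162 lower (2.47%, beside 0.772%), among them T24H7.6 with 1717, 518, 414 and 1716 against 5753 in prg-1 (adjusted p = 0.119 by edgeR without ust95). Of mitochondrial transcripts, 1 of 36 (2.78%, beside 0.772% over all features) was lower on the sense strand, MTCE.10, with 797, 1689, 2278 and 434 reads against 6235 in prg-1. On the antisense strand 2 of 9 (22.2%, beside 6.43%) were higher. The call of MTCE.10 ended without it20 or ust95, and that of MTCE.33, antisense, without it20, ust94 or yt2. The single transposon entry, F44E2.2, had 5731, 50, 248 and 430 antisense reads, against 196 in prg-1 and 306 in control, with it20 alone far above the rest, and did not pass (adjusted p = 0.202 by edgeR).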

How the data were processed

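The authors deposited read counts for each library, as whole numbers for every transcript and piRNA and for each strand, with a class for each entry. Bowtie2 was the aligner, per the submitters' processing notes. The aligner's version, the build, how multiply matched reads and strand were handled and how reads were counted were not given in the sources used here. Counts were summed here per gene, class and strand, after turning the strand of 7 rRNA features whose counts otherwise went against the deposited class sums. Entries without a class (3, with 7 to 22 reads in the libraries compared) were left out. Genes were named and placed with the WBcel235 annotation, which held 25705 of the 25984 genes with reads; mature and precursor piRNAs are named as in the files.

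The counts of all 8 TDP2 libraries (5 genotypes) were fitted with edgeR 4.0.16 in R 4.3.3 (TMM, glmQLFit, glmQLFTest, Benjamini-Hochberg over all 22549 features with at least 10 reads in 1 library and 30 in all). The 3 residual degrees of freedom came from the tofu-6 alleles alone; the median biological coefficient of variation was 0.561, and all features shared the pooled spread, so that a feature high in 1 allele can pass. CPM is reads per 1000000 of TMM-adjusted library size. Folds against 0 reads are lower bounds from a floor of 3 reads per library, and intervals cover counting error only, since reads carry no molecular identifiers. Shares were compared with an exact permutation test. Gene lists and their members, and the rule for named features, were chosen with earlier results of these data known. By that rule the text names, per class and strand, up to 5 features of largest rise and fall, the most read piRNAs of control and prg-1, the mutated genes and up to 3 members of each list. Some of the features so chosen are given by their counts alone. The WAGO list held only bath-45, xol-1 and C38D9.2. Alternatives were other scalings in edgeR (size factors by DESeq2's method, microRNA reads, assigned reads, reads outside structural RNA), no and stricter filters and the 5 libraries alone. Further ones were the Wald test of DESeq2 1.42.0 and each allele left out.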

Additional observations from a re-analysis of the deposited data

Results flagged for a closer look

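Of 143 values tested for an allele far from the other 3 (by Dixon's 95% limit on the gap over the range), 26 stood apart. The limit allows about 1 in 20 for independent, normally spread values, which these were not shown to be. Many are CPM of features named for their folds or p-values. Some share reads, such as the antisense transposon share and F44E2.2, the single transposon entry. None of the 26 was weighed further.

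yt2 stood highest in 10 values. The first 8 were the share of sense ncRNA reads (3.48% of assigned reads), antisense reads of his-47 (309 CPM), hsp-16.1 (7.95), rpl-25.1 (54.8), unc-87 (313), linc-6 (532) and T21F2.3 (77.8 CPM), and sense reads of F07F6.7 (48.8 CPM). The precursors of piR-cel-15797 (39.8 CPM) and piR-cel-22449 (275 CPM) were likewise highest in yt2.

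it20 stood highest in the shares of antisense rRNA (0.0459%), sense snRNA (11.7%) and antisense transposon reads (0.0652%). It was also highest in antisense reads of F44E2.2 (667 CPM), sense reads of T14B4.10 (4264 CPM), mature piR-cel-8412 (58 CPM) and the precursor of piR-cel-15748 (22.2 CPM).

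ust94 stood highest in sense reads of hsp-16.2 (9.13 CPM), hsp-70 (9.42 CPM) and mip-2 (25.7 CPM), and lowest in those of Y66D12A.3 (8.12 CPM). ust95 stood highest in mature piR-cel-2290 (27.2 CPM), the antisense feature of piR-cel-16614 (289 CPM), sense reads of msp-50 (4.80 CPM) and the summed sense reads of the sperm list (211 CPM), and lowest in sense reads of prg-1 (13.4 CPM).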

How the results depend on the processing

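The number of calls followed the scaling and the libraries used, and the cause was not tested. No feature was called either way with libraries scaled to assigned reads (0 in each group counted below; 3398 features at an unadjusted p under 0.05), where the pooled spread was also weighted less. Its weight, as prior degrees of freedom, was 4.99 there, 11.9 with DESeq2 size factors and 17.9 with the 5 libraries alone. In the main fit it was infinite. Features higher in tofu-6 numbered 1450; they were 637 with DESeq2 size factors, 909 with microRNA scaling and 855 with the 5 libraries alone, against 1214 with DESeq2's test. Lower ones numbered 174, with 80 under DESeq2 size factors and 454 when scaled to reads outside structural RNA. In the order DESeq2 size factors, microRNA scaling and 5 libraries, antisense genes higher were 573, 807 and 757, sense genes higher 23, 27 and 33, mature piRNAs 1, 5 and 3, antisense histones 2, 5 and 2, antisense collagens 7, 8 and 8, and ERGO-1 targets 1, 1 and 2. Antisense genes lower were 12 with DESeq2 size factors, 107 outside structural RNA, 15 with the stricter filter and 11 with DESeq2's test. Sense genes lower were 25, 161, 57 and 31 in the same order, and 55 with 5 libraries; sense genes higher were 46 both outside structural RNA and without a filter. DESeq2's test gave 9 mature piRNAs, 7 sperm genes, 5 antisense histones and 10 ERGO-1 targets. Sperm genes lower were 3 with DESeq2 size factors and 13 with 5 libraries. Sense histones lower were 5 with DESeq2 size factors, 6 with microRNA scaling and 33 outside structural RNA. ERGO-1 targets were 3 outside structural RNA and 3 without a filter.

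Leaving out each allele gave 890 to 1736 features higher and 76 to 443 lower, 792 to 1468 and 10 to 173 antisense genes, 27 to 103 and 21 to 150 sense genes, 6 to 24 mature piRNAs, 5 to 35 sperm genes, 4 to 25 antisense and 0 to 33 sense histones, 8 to 13 collagens and 3 to 9 ERGO-1 targets. The ratio of shares ranged over 1.93 to 2.6 for mature piRNAs, 1.12 to 1.45 for precursors, 1.90 to 3.26 for antisense reads and 1.48 to 2.02 for microRNAs, and precursor reads per mature read over 0.495 to 0.645 of prg-1. That ratio was 0.0864 at the 521 loci. Mature piRNAs stood at 1.15 times prg-1 per read outside structural RNA and 1.39 times per microRNA read; precursors reversed to 0.636 and 0.839, and microRNAs to 0.847 per read outside structural RNA. edgeR with bias-adjusted deviances, chosen after seeing the data, gave 1643 higher and 208 lower.

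Some named features without a call changed sign. vit-3 turned to -0.03 and tofu-6 sense reads to -0.26 outside structural RNA, and mature_piR-cel-25155 to 0.09 and pre_piR-cel-18434 to 0.04 with assigned reads. With an allele left out, tofu-6 sense reads ranged over -0.17 to 0.63, tofu-6 antisense over -0.98 to 1.06, F44E2.2 antisense over -0.32 to 3.03, mature_piR-cel-8412 over -1.63 to 0.17 and pre_piR-cel-1430 over -0.50 to 0.53. mature_piR-cel-8412 turned to 0.02 with microRNA scaling and 0.31 with assigned reads, and pre_piR-cel-1430 to -0.15 with microRNA scaling, -0.29 outside structural RNA, -0.00 without a filter and -0.07 with 5 libraries. No paired analysis was possible because prg-1 has 1 TDP2 library, so the groups share fewer than 2 replicate numbers. Depth limits what can be said of single mature piRNAs: most had no read in prg-1, where the floor of 3 reads is the bound.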
